A study of Mus musculus with 4 samples.

Results

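The genes described here are the 9 genes of IL-4 and IL-13 receptor signalling Il4ra, Il13ra1, Il13ra2, Il2rg, Jak1, Jak3, Stat6, Cish and Socs1, chosen by their symbols among the 27998 genes listed in every library. All 9 were found, and 8 of them had at least 50 unique molecular identifiers (UMIs, 1 per captured transcript) in most cell populations, the exception being Il13ra2. The question was which cells of the nasal mucosa carried the receptor chains for these 2 cytokines, and where the feedback genes were high.

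The cells came from the nasal mucosa of C57BL/6 mice aged 8 weeks and were profiled by droplet single-cell RNA sequencing, with CD45+ cells (CD45 is the common surface protein of leukocytes) as the labelled cell type. There were 4 groups with 1 library each, Vehicle, Vehicle-OVA, Ribavirin and Ribavirin-OVA, and values are given in this order unless the library is named. Allergic rhinitis was modelled with the allergen ovalbumin (OVA), and ribavirin is an antiviral drug that the series describes as a nasal spray. Neither the dose and timing of ribavirin nor the number of mice in a library is given in the sources used here.

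IL-4 is bound by the type I receptor, made of Il4ra and the common gamma chain Il2rg, and IL-4 and IL-13 are both bound by the type II receptor, made of Il4ra and Il13ra1. Il13ra2 binds IL-13 with high affinity and is known as a decoy chain. Jak1, bound to Il4ra, and Jak3, bound to Il2rg, phosphorylate Stat6, which then enters the nucleus and activates its target genes. Cish and Socs1 belong to the SOCS family, whose members are induced by cytokine signals and dampen them, and Cish is best known as a target of Stat5 downstream of IL-2 family cytokines. In allergic airways this pathway is known for IgE class switching, mucus production and the Arg1- and Retnla-positive macrophage state.

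The libraries held 28277, 19143, 21401 and 10311 barcodes with between 91742940 and 171873110 UMIs each. After filtering and removal of marked doublets, 24388, 16807, 19526 and 8724 cells were kept, with median depths of 3333 to 5064 UMIs. Between 57 and 174 barcodes were shared by any pair of libraries, at most 0.909% of the smaller library. Cells that are not leukocytes were present despite the CD45+ label: epithelial-like, olfactory neuron-like and endothelial-like cells carried all of their listed markers in every library. The cells fell into 43 clusters, named by marker genes into 17 classes, and the 9 genes were left out of the clustering. Unnamed clusters that carried much of the signal are given by number. Cluster 0 was led by Gpc3, Siglecf, Adamdec1 and Ltc4s and had 6 of 10 neutrophil markers, while of the eosinophil markers Siglecf was among its leading genes and Epx was at 0 UMIs in all 4 libraries. Cluster 4 was led by Ccl24, Arg1, Slc7a2 and Retnla and had 8 of 9 macrophage markers. Cluster 12 was led by Hspa1b, Gpnmb and Hspa1a. Cluster 23b held 1, 56, 1 and 144 cells, was led by Calca, Il13, Foxb1, Il1rl1, Il5 and Il4, and carried the 8 markers of group 2 innate lymphoid cells (ILC2) together with Cd3e, a T cell marker, which was found in 82.1% (69.6 to 91.1) of its Vehicle-OVA and 66% (57.6 to 73.7) of its Ribavirin-OVA cells. Clusters 2 and 9 (neutrophil-like) and 12 came to 78.3% to 91.2% from Vehicle-OVA, and clusters 8 (neutrophil-like) and 31 (T cell-like) to 87.4% and 96.9% from Ribavirin.

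The promoter of Cish carries, at its very start, the paired motif for which the gene is known as a STAT target, and it is shown because Cish turned out to be the gene of the 9 with the most widespread OVA difference. STAT dimers bind palindromes of the form TTCNNNGAA, and Stat6 is known to prefer 1 more base between the arms, TTCNNNNGAA. Both motifs read the same on both strands, so 1 search covered both, and matches of the 2 forms were counted separately. In windows from 250 bases before to 50 bases after each annotated start (RefSeq, GRCm38.p6), TTCNNNGAA was found in 8.3% of 32851 windows and TTCNNNNGAA in 6.95%. Of the 9 windows of the genes described here, 1 held TTCNNNGAA, that of Cish, and 0 held TTCNNNNGAA. Of 62 windows of the other genes listed, 9.68% held TTCNNNGAA and 12.9% TTCNNNNGAA. The shorter form was found for Batf3, Ccl17 and Chil3, which are listed as IL-4 target genes, and for Il4, Il7r and Socs3. The longer form was found for the IL-4 target genes Ccl17, Fcer2a, Pdcd1lg2 and Retnla, and for Il4, Inpp5d, Shc1 and Stat2. IL-4 target genes and Il4 thus held both forms. The Cish stretch lies at chr9:107296655-107296682 on the plus strand, with 1 copy beginning at the start base and another 11 bases further on. The RefSeq start used here lies inside the gene as GENCODE draws it. The stretch is set beside 3 stretches with the longer spacing, from the IL-4 target genes Retnla (chr16:48842454-48842483, plus strand, 145 bases before the start) and Fcer2a (chr8:3691010-3691039, minus strand, 168 bases before) and from Il4 itself (chr11:53618813-53618842, minus strand, 167 bases before). Capitals mark the motif matches.
Cish: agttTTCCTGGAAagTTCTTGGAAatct
Retnla: agaatcataaTTCACAAGAAattgctaaac
Fcer2a: agagggtgaaTTCCCAAGAAgggccaggag
Il4: ttggtctgatTTCACAGGAAaatttacctg
The second Cish copy has its arms 3 bases apart as does the first, and the other 3 stretches have 4 bases between them. A match is a description of the letters and does not show that a factor was bound.

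Il4ra, the chain shared by both receptors (ENSMUSG00000030748, chr7:125552120-125579474, plus strand, GRCm38), was highest in neutrophil-like cells and cluster 0. Levels are given in CPM, the UMIs of a gene summed over the cells of a population and scaled to 1000000 UMIs of that population. In cluster 0 Il4ra was at 357, 498, 382 and 449.8 CPM, and in neutrophil-like cells at 404, 355, 290.2 and 270 CPM. The ranges of these 2 populations overlapped, and neither overlapped that of cluster 12 (224 to 259 CPM), the next in order. Below it the ranges of neighbours overlapped throughout, from cluster 4 (121 to 313 CPM), macrophage-like (131 to 283 CPM), monocyte-like (101 to 199 CPM) and conventional dendritic cell (cDC)-like cells (82.9 to 180.5 CPM) downwards. The wide ranges of cluster 4 and macrophage-like cells also reached into that of neutrophil-like cells. In Ribavirin-OVA cluster 4 was at 268.8 CPM beside 270 CPM in neutrophil-like cells. Lymphoid cells were lower, with 60.4 to 134 CPM in B cell-like, 40.5 to 105 CPM in NK-like, 35.5 to 84.8 CPM in ILC2-like and 31.0 to 78.9 CPM in T cell-like cells. Plasma cell-like cells, which secrete antibody, were lowest with 5.41, 22.96, 4.64 and 11.99 CPM. Neutrophil-like cells held 25%, 45.6%, 26.5% and 14.8% of all Il4ra UMIs of a library, and cluster 4, which barely existed without OVA (54 and 86 cells), held 0.362%, 30.9%, 1.09% and 40.8%.

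The same order was seen cell by cell. After each cell was thinned to 1000 UMIs, an Il4ra UMI was found in 32.4%, 26%, 24.9% and 23.8% of neutrophil-like cells (53.6%, 52.4%, 50.6% and 48.2% before thinning, at median depths of 2059 to 3068 UMIs). It was found in 3.31%, 7.95%, 4.45% and 5.66% of the T cell-like cells (12.8% to 27% before thinning, at 4110 to 5117.5 UMIs). Plasma cell-like cells gave the lowest shares, 0.322% to 2.26% (5.37% to 29.1% before thinning, at 10126.5 to 18815 UMIs). How much free RNA in the droplets added to the shares of any population was not tested.

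Il13ra1, the second chain of the type II receptor (chrX:36112110-36171259, plus strand), was highest in the same populations, and split the lymphoid from the myeloid and epithelial populations. It was at 205, 314, 201 and 300.2 CPM in cluster 0 and at 249, 252, 182 and 226 CPM in neutrophil-like cells. Monocyte-like cells had 89.5, 236, 104 and 144 CPM, and their range did not overlap that of the next in order, cluster 29. Macrophage-like cells (51.5 to 84.8 CPM), cluster 4 (62.2 to 106 CPM) and cDC-like cells (62.3 to 88.0 CPM) overlapped one another. T cell-like cells had 3.91, 11.2, 5.66 and 3.34 CPM, NK-like cells 2.47 to 11.98 CPM and cluster 23b 3.07 to 8.30 CPM. In ILC2-like cells, a known source of IL-13, there were 1, 4, 0 and 0 Il13ra1 UMIs in all. The thinned share of T cell-like cells with an Il13ra1 UMI was 0.205%, 1.01%, 0.55% and 0.452%, and that of neutrophil-like cells 17.3% to 22.8%.

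Within the epithelial-like class Il13ra1 was uneven. Cluster 34, led by Trpm5 and Il25, genes known from tuft cells, had 526 CPM in Vehicle and 392 CPM in Ribavirin, the 2 libraries where it was large enough to be summed. Cluster 22, with the basal cell keratin Krt5 among its leading genes, had 80.7, 167, 80.4 and 121 CPM. Clusters 32 (led by Sec14l3 and Cyp2g1) and 33 (led by Bpifb6 and Gpx6) had 42.8 to 176 CPM and 22.1 to 64.8 CPM. Cluster 26, led by Bpifb9b, was lowest with 9.22, 22.9, 4.77 and 7.51 CPM. In each of clusters 22, 32, 33 and 26 the OVA library was the higher of both pairs.

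Il13ra2, the decoy chain (chrX:147383476-147429192, minus strand), was nearly absent from leukocytes. Epithelial-like cells had 14, 32, 42 and 122 UMIs, or 1.73, 5.99, 1.26 and 6.73 CPM. In all libraries but Vehicle, where cluster 22 held 8 UMIs, most lay in cluster 33, which had 3, 21, 27 and 98 UMIs (3.90, 17.5, 10.3 and 49.2 CPM). Endothelial-like cells had 2 UMIs in Ribavirin and 7 UMIs in Ribavirin-OVA, and no other population with at least 20 cells in a library had more than 2 UMIs there.

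Il2rg, the common gamma chain (chrX:101264378-101268255, minus strand), was highest in lymphoid populations and low in cluster 0 and neutrophil-like cells. It was highest in cluster 23b, at 455 CPM in Vehicle-OVA and 432 CPM in Ribavirin-OVA, above the range of every other population. ILC2-like cells (324, 226, 266 and 306 CPM), T cell-like cells (255, 254, 236 and 259.5 CPM) and NK-like cells (276, 204, 238 and 256 CPM) overlapped one another, and none overlapped B cell-like cells (156 to 180.4 CPM). Below B cell-like cells came cDC-like cells (109 to 139 CPM), cluster 4 (94.9 to 135 CPM), monocyte-like (88.8 to 148 CPM) and macrophage-like cells (97.6 to 145 CPM). Neutrophil-like cells had 23.3 to 30.5 CPM and cluster 0 had 17.8 to 20.1 CPM, ranges that did not overlap. Epithelial-like cells were lowest with 4.52 to 8.90 CPM. After thinning, an Il2rg UMI was found in 24.1%, 21.7%, 21.5% and 22.2% of T cell-like cells (64% to 67.8% before thinning), against 0.8% to 2.94% of epithelial-like cells (10.6% to 13.4% before thinning, at median depths of 9518.5 to 31470 UMIs).

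**Figure D1:**
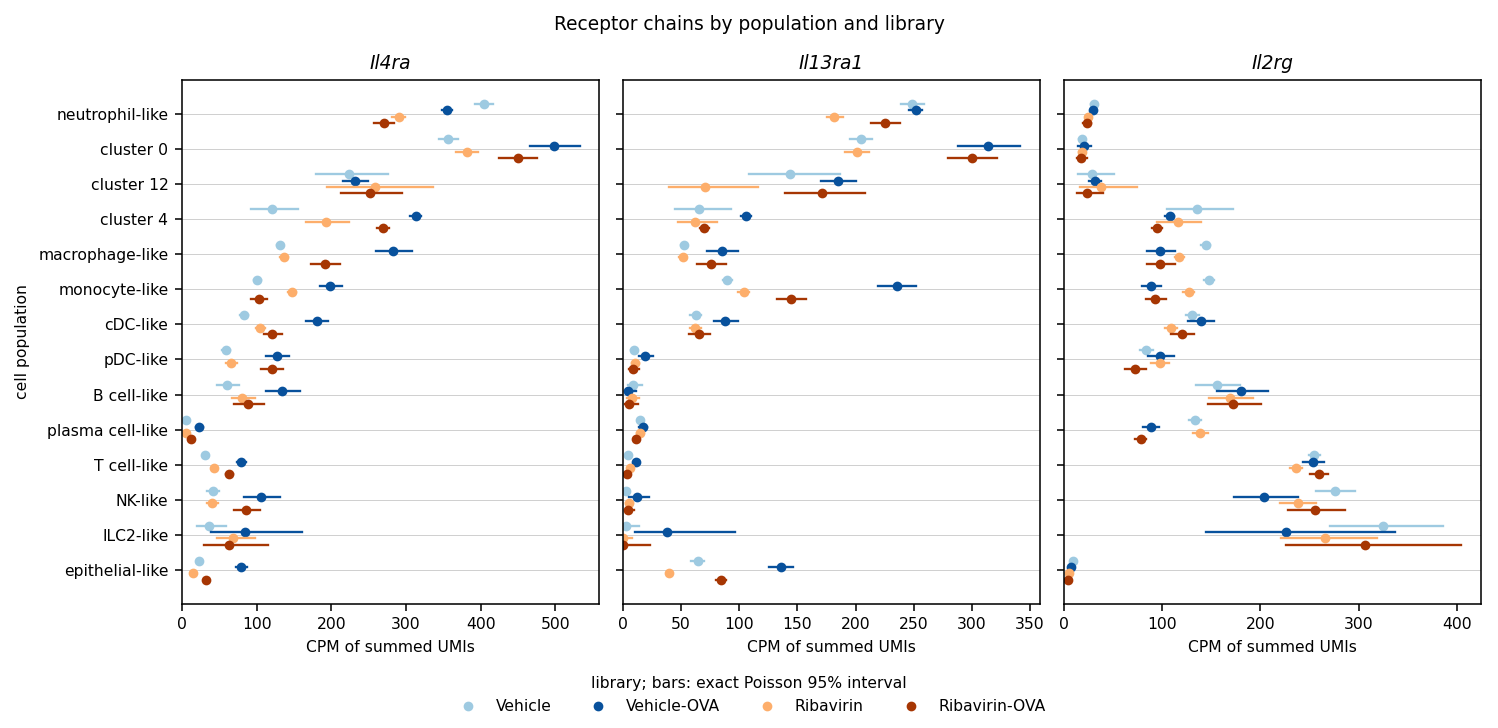
Levels of Il4ra, Il13ra1 and Il2rg in CPM (horizontal axes) in 14 cell populations (vertical axis), 1 point per library in the colours of the 4 groups, with exact Poisson 95% intervals as bars. Il4ra and Il13ra1 peak in cluster 0 and neutrophil-like cells, while Il2rg is at 236 to 259.5 CPM in T cell-like cells and below 31 CPM in neutrophil-like cells and cluster 0.

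Both chains of a receptor have to be present in 1 cell for signalling, so UMIs of both were counted per cell after thinning to 1000 UMIs. Cluster 0 cells had the type II pair, Il4ra with Il13ra1, at 5.47%, 10.9%, 5.98% and 8.05%, and neutrophil-like cells at 8.19%, 6.04%, 5.06% and 7.31%. Before thinning the shares were 28.2% to 42.6% and 23% to 27.7%. Cluster 12 had 0.658%, 3.31%, 6.15% (4 of 65 cells) and 2.93%. Cluster 4 had 2.23% in Vehicle-OVA and 1.27% in Ribavirin-OVA (39.2% and 30.2% before thinning). Macrophage-like cells had 0.57% to 2.73% (25.3% to 32.2% before thinning). Monocyte-like cells had 0.889%, 4.37%, 2.19% and 1.08% (24%, 55.2%, 37% and 34.8% before thinning) and epithelial-like cells 1.33%, 1.18%, 0.888% and 0.533% (18.1% to 53.9% before thinning). In the lymphoid and plasmacytoid populations the type II pair was rare at this thinned depth. T cell-like cells had it in 0 of 6350 Vehicle cells, which allows up to 0.0472% of cells with both UMIs at 1000 UMIs per cell, and in 0.0239% to 0.135% of the cells of the other libraries. Before thinning it was found in 0.667%, 2.55%, 1.08% and 0.776% of them. It was seen in no thinned NK-like, plasma cell-like or plasmacytoid dendritic cell (pDC)-like cell of any library, where counts of 0 allow up to 0.237% in the largest and 2.5% in the smallest of these samples. Before thinning the pair was found in 0% to 2.42% of NK-like, 0.644% to 7.17% of plasma cell-like and 2.7% to 11% of pDC-like cells, so the limits apply to the thinned depth and not to the presence of the receptor.

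The type I pair, Il4ra with Il2rg, was found in 0.835%, 1.75%, 0.933% and 1.24% of T cell-like cells (9.18%, 18.9%, 14.2% and 18.6% before thinning). The share in cluster 23b was 1.79% (1 of 56 cells) in Vehicle-OVA and 5.56% (8 of 144 cells) in Ribavirin-OVA, and 57.1% and 43.8% before thinning. Neutrophil-like cells, with little Il2rg but much Il4ra, had 0.435% to 0.769%. Cluster 4 had 2.23% in Vehicle-OVA and 1.34% in Ribavirin-OVA (38.7% and 34.7% before thinning). Macrophage-like cells had 1.1% and 1.25% without OVA and 0% in both OVA libraries (28% to 38.4% before). Monocyte-like cells had 0.546% to 1.84% (26.1% to 37.1% before) and cDC-like cells 0.417% to 1.86% (32.3% to 46.9% before). These populations were deeper than T cell-like cells, at medians of 7617.5 to 12872 against 4110 to 5117.5 UMIs, and had higher shares before thinning. B cell-like cells had 0.613% to 1.69%, and ILC2-like cells 1.08% to 3.85%, each of these last from 1 or 2 cells. In epithelial-like cells the pair was found in 0.111% of the Ribavirin cells and in 0 cells of the other 3 libraries, which allows up to 0.798%, 1.76% and 0.8% at this depth. Before thinning it was found in 4.29%, 9.55%, 6.99% and 6.57% of them.

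**Figure D2:**
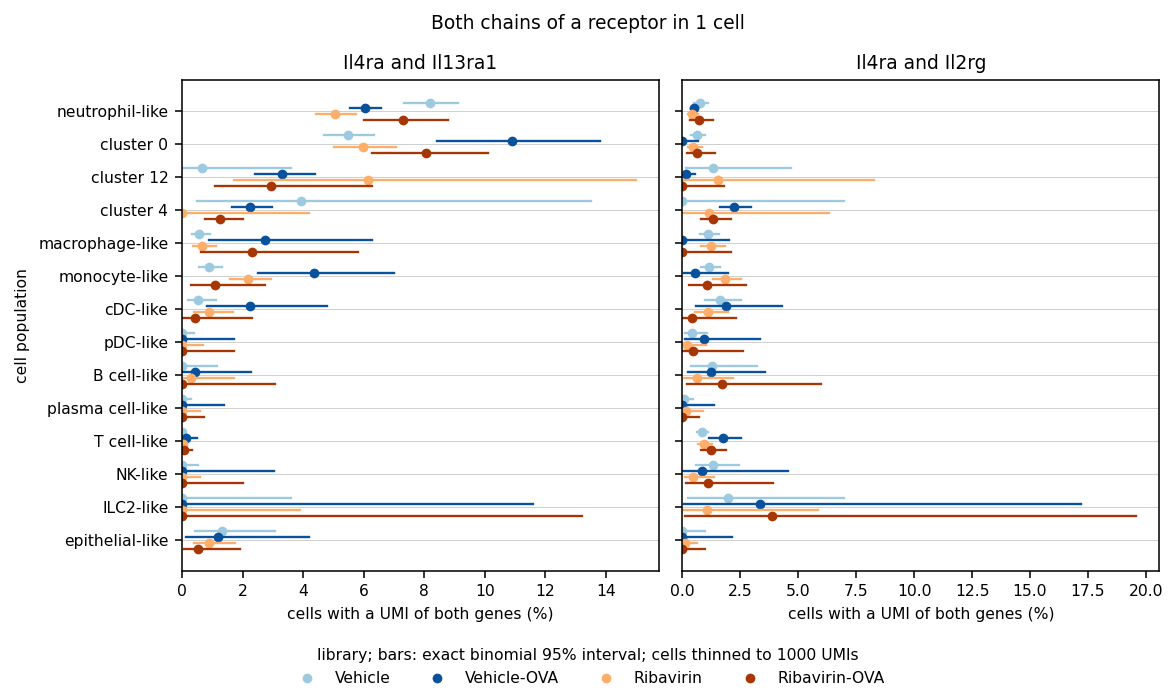
Percentage of cells with at least 1 UMI of both chains after thinning each cell to 1000 UMIs (horizontal axes), for Il4ra with Il13ra1 and for Il4ra with Il2rg, by population (vertical axis) and library (colour), with exact binomial 95% intervals as bars. For the Il13ra1 pair, cluster 0 and neutrophil-like cells have 5.06% to 10.9% in every library, and cluster 12 has 0.658% to 6.15%. Shares of the Il2rg pair are mostly below 2%.

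The kinases and Stat6 were less restricted than the chains. Jak1 (chr4:101152367-101265282, minus strand), which serves many cytokine receptors, was at 937.5, 1049, 1069 and 1096 CPM in NK-like cells, above the range of every other population. T cell-like cells had 359, 570.1, 353 and 531 CPM. Epithelial-like (53.7 to 105 CPM) and plasma cell-like cells (59.2 to 77 CPM) were lowest, with overlapping ranges. Jak3 (chr8:71676296-71690575, plus strand), the partner of Il2rg, was at 48.2 and 49.2 CPM in the 2 OVA libraries of cluster 23b. It was at 35.8, 60.2, 34.7 and 54.2 CPM in cluster 0, where Il2rg was low. T cell-like cells had 21.9, 37.4, 25.8 and 32.1 CPM. Epithelial-like and olfactory neuron-like cells had the lowest medians over the libraries, with at most 7.68 and 8.65 CPM, but the lowest libraries of cluster 4 (8.19 CPM) and pDC-like cells (8.27 CPM) lay within the olfactory range.

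Stat6 (chr10:127642986-127660957, plus strand), the transcription factor of the pathway, was nearly level across libraries in neutrophil-like cells, at 104, 103, 102 and 107 CPM. It was at 64.3, 125.5, 47.0 and 149.5 CPM in cluster 12 and at 56.4, 88.2, 61.0 and 99.7 CPM in monocyte-like cells, while the T cell-like levels were 46.4, 68.1, 45.7 and 60.3 CPM. In each of these 3 populations both OVA libraries were above both libraries without OVA. Epithelial-like (14.8 to 26.8 CPM) and plasma cell-like cells (8.90 to 18.3 CPM) were again low.

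**Figure D3:**
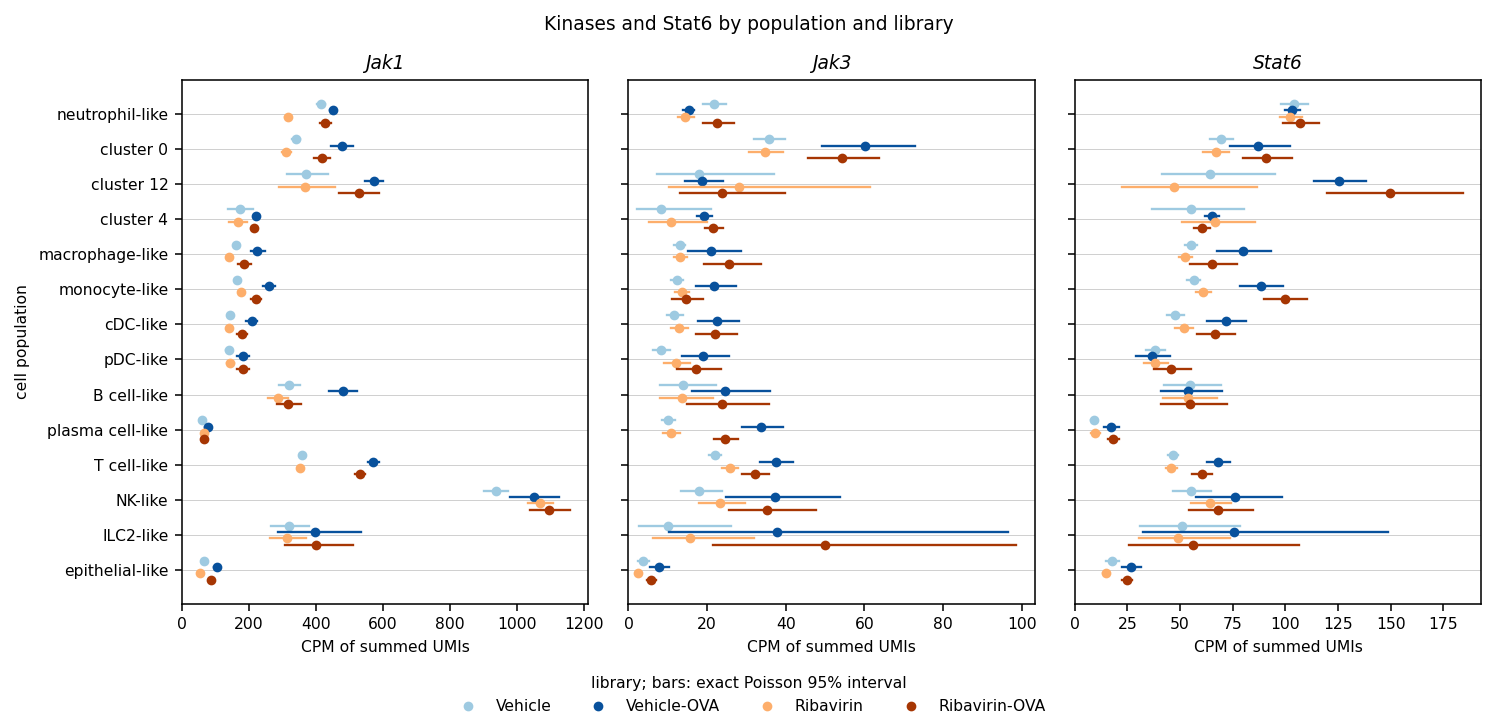
Levels of Jak1, Jak3 and Stat6 in CPM (horizontal axes) by population (vertical axis) and library (colour), with exact Poisson 95% intervals as bars. Jak1 peaks in NK-like cells at 937.5 to 1096 CPM, and Stat6 of neutrophil-like cells stays between 102 and 107 CPM in all 4 libraries.

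Cish (chr9:107296026-107302784, plus strand) was highest in basophil-like cells, cluster 23b and ILC2-like cells, the populations that held much of the Il4 and Il13 transcripts. It was at 803 and 485 CPM in the Vehicle-OVA and Ribavirin-OVA basophil-like cells (27 and 29 cells) and at 674 and 494 CPM in those of cluster 23b. ILC2-like cells had 340, 697.5, 341.5 and 237 CPM and T cell-like cells 138, 327, 153 and 329 CPM. These 4 populations overlapped their neighbours in order. At the other end were macrophage-like (11.3 to 15.4 CPM), pDC-like (2.10 to 14.9 CPM) and monocyte-like cells (15.7 to 24.2 CPM). Neutrophil-like cells differed widely between libraries, with 33.4, 275, 49.4 and 99.96 CPM. T cell-like cells held 69.4%, 19.2%, 58.2% and 45.2% of all Cish UMIs of a library and neutrophil-like cells 5%, 56%, 10.8% and 7.17%. After thinning, 12.2%, 24.9%, 14% and 24.4% of T cell-like cells had a Cish UMI (37.8%, 58.3%, 43.9% and 60.8% before). The neutrophil-like shares were 2.52%, 20.3%, 3.96% and 9.96% (5.95%, 40.8%, 11.8% and 21% before). In macrophage-like cells, which were deeper (7617.5 to 9999 UMIs at the median), it was found in 0.917% to 1.73% (8.63% to 11.3% before).

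Socs1 (chr16:10782240-10785536, minus strand), which binds and inhibits Jak kinases, was at 94.0, 84.1, 88.3 and 68.7 CPM in neutrophil-like and 73.1, 83.6, 69.7 and 77.9 CPM in T cell-like cells. Neutrophil-like cluster 10, led by the interferon-induced gene Ifit3, had 179, 229.5, 217.5 and 254 CPM, the highest level of the neutrophil-like clusters in every library but Vehicle, where the 21 cells of cluster 2 had 318.5 CPM from 18 UMIs. Plasma cell-like cells had 9.92, 83.1, 20.1 and 41.6 CPM, so that both OVA libraries lay above both others. ILC2-like cells had 254.5 CPM in Vehicle-OVA from 27 UMIs in 34 cells, and 25.0 to 73.2 CPM in the other libraries. Epithelial-like cells were lowest of the larger populations at 7.79 to 10.1 CPM.

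**Figure D4:**
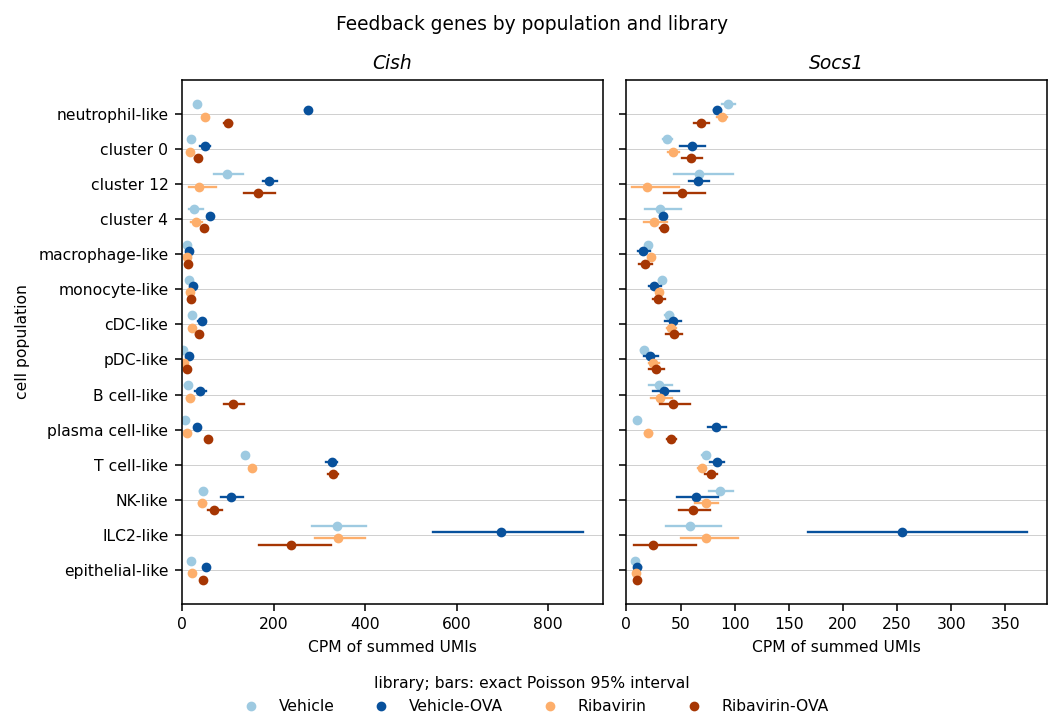
Levels of the feedback genes Cish and Socs1 in CPM (horizontal axes) by population (vertical axis) and library (colour), with exact Poisson 95% intervals as bars. The 2 OVA libraries of T cell-like cells are at 327 and 329 CPM of Cish against 138 and 153 CPM without OVA, while Socs1 of the same cells stays at 69.7 to 83.6 CPM.

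The study compared OVA with control mice. Each group is 1 library, so the spread between mice is unknown, no test was made, and the intervals cover counting error only. A gene counted as higher or lower at 1.5-fold on CPM + 1, provided it had 50 or more UMIs in the 4 libraries together, in the 13 populations with at least 50 cells in every library. Many genes passed that fold, so the count among the genes described here is read against them. In neutrophil-like cells 1 of 8 genes was past the fold under vehicle and 2 of 8 under ribavirin, beside 51.0% and 41.8% of all genes. In T cell-like cells it was 5 and 3 of 8 (45.0% and 42.3% of all genes), in monocyte-like cells 7 and 1 of 8 (43.3% and 43.4%) and in macrophage-like cells 3 and 1 of 8 (40.7% and 37.6%). Cluster 0 had 4 and 2 of 8 (41.5% and 36.5%), cluster 4 had 4 and 2 of 8 (43.1% and 39.6%) and cluster 12 had 3 and 5 of 8 (52.2% and 50.4%). In cDC-like cells 3 and 2 of 8 passed (43.7% and 42.8%), in pDC-like cells 4 and 2 of 8 (39.3% and 36.8%) and in plasma cell-like cells 6 and 6 of 8 (49.5% and 51.3%). Epithelial-like cells had 6 and 7 of 9 (54.5% and 46.5%), NK-like cells 3 and 2 of 7 (45.2% and 37.7%) and B cell-like cells 3 and 2 of 7 (52.5% and 41.6%). The share was furthest above the background in monocyte-like cells under vehicle, epithelial-like cells under ribavirin and plasma cell-like cells in both pairs, and furthest below it in neutrophil-like cells under vehicle and monocyte-like cells under ribavirin. The clusters within a class also changed in proportion. Monocyte-like cluster 5 held 2228, 126, 1441 and 78 cells and cluster 18 held 493, 251, 567 and 298. Macrophage-like cluster 7 held 1647, 64, 1370 and 60 of 2729, 230, 2073 and 211 cells, and epithelial-like cluster 26 held 112, 26, 301 and 73 of 420, 178, 901 and 396. For these classes values within clusters are therefore given beside the class ratio. By direction, 10.5% to 48.8% of all genes were higher and 5.7% to 40.6% lower under vehicle, depending on the population, and 24.2% to 43.8% higher and 2.75% to 17.5% lower under ribavirin.

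The ratios of all genes were themselves shifted towards higher values with OVA, with a median log2 ratio of 0.21 to 0.57 in these populations apart from neutrophil-like cells under vehicle (-0.44), and they followed transcript length. Some ratios below are therefore given with the share of genes with an equal or larger ratio. Counts of populations past the fold with OVA are also given for ratios relative to the median of the 500 genes nearest in transcript length, here called length-centred. A fold printed without such a share is not set against the other genes.

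Cish differed with OVA in more populations than any other of the 9 genes. It was at least 1.5-fold higher in 12 of the 13 populations under vehicle and in 11 under ribavirin, and above 1-fold in 13 of 13 in both pairs. When length-centred, it was past the fold upwards in 9 and 4 populations and downwards in 0. The T cell-like ratio was 2.36 (2.25 to 2.48) in the vehicle pair and 2.15 (2.05 to 2.25) in the ribavirin pair, which 5.3% and 5.51% of genes equalled or passed. The T cell-like clusters were similar. The fold was 2.48 and 1.98 in cluster 1, led by Il17a, 2.29 and 2.69 in cluster 3, led by Gzmk, 1.76 and 1.89 in cluster 14, led by the regulatory T cell factor Foxp3, and 2.7 and 2.11 in the proliferating cluster 19. Cluster 14 had 513 CPM in Ribavirin-OVA.

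Neutrophil-like cells had the largest Cish fold of the 13 populations under vehicle, 8.25 (7.39 to 9.23), and 2.02 (1.81 to 2.26) under ribavirin, equalled or passed by 0.486% and 11.5% of genes. Different clusters made up the class in the 2 libraries of a pair. Cluster 2 (21, 4872, 180 and 271 cells, led by Csf3 and Serpinb2) was at 230, 367, 107.5 and 350.5 CPM, and cluster 6 (2230, 777, 373 and 276 cells) at 24.1, 76.0, 32.8 and 74.1 CPM. Within single clusters the folds under vehicle were smaller than in the class, 3.15 in cluster 6, 4.21 in cluster 9, 2.17 in cluster 10 and 3.71 in cluster 21. Under ribavirin these clusters had 2.26, 1.68, 1.61 and 2.2. The fold in cluster 8 was 1.53 (0.652 to 3.23) under vehicle, within counting error, and 1.63 (1.22 to 2.13) under ribavirin. In cluster 2 it was 1.6 (0.933 to 3) under vehicle, within counting error, and 3.26 under ribavirin.

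Plasma cell-like cells had 5.1-fold (3.94 to 6.63) and 5.22-fold (4.2 to 6.55) Cish, equalled or passed by 1.3% and 0.562% of genes. Clusters 17 (1088, 2, 531 and 2 cells) and 24 (11, 213, 8 and 341 cells) replaced each other between the libraries, and only cluster 27 was present in all 4. There Cish was at 7.92, 28.4, 4.69 and 55.7 CPM, a fold of 3.59 (2.15 to 6.08) and 11.9 (5.95 to 27.8). B cell-like cells had 3.16-fold (1.71 to 6.15) and 6.43-fold (4.07 to 10.6). In pDC-like cells, from 15 to 33 UMIs a library, they were 7.07 (3.73 to 14) and 2.72 (1.45 to 5.2). Macrophage-like cells alone stayed below the fold in both pairs, with 1.33-fold (0.881 to 1.93) and 1.14-fold (0.729 to 1.71). Both were within counting error, with 43.6% and 55.9% of genes at or above them. Within them cluster 7 had 0.835-fold (0.303 to 1.85) and 1.97-fold (1.05 to 3.38), and cluster 15 had 1.52-fold (0.896 to 2.47) and 0.916-fold (0.446 to 1.73). Cluster 4, which shared most macrophage markers, had 2.27-fold (1.32 to 4.28) and 1.56-fold (1.07 to 2.36). Monocyte-like cells had 1.54-fold and 1.14-fold (0.874 to 1.48), but within them cluster 5 had 2.68-fold (1.93 to 3.65) and 2.11-fold (1.34 to 3.19) and cluster 18 had 1.27-fold (0.777 to 2.06) and 1.36-fold (0.891 to 2.07). In ILC2-like cells the pairs went apart, at 2.05 (1.52 to 2.75) and 0.695 (0.474 to 0.997), from 31 to 105 cells. With cluster 23b counted in, a grouping added after the data had been seen, the log2 ratio under ribavirin was 0.44 in place of -0.52.

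Il4ra was at least 1.5-fold higher with OVA in 10 of 13 populations under vehicle and in 4 under ribavirin (6 and 1 when length-centred, where 0 and 2 were lower). The folds of the lymphoid populations under vehicle were 2.54 (2.3 to 2.81) in T cell-like, 2.57 (1.9 to 3.45) in NK-like and 2.22 in B cell-like cells, and under ribavirin 1.5 (1.37 to 1.65), 2.12 (1.61 to 2.8) and 1.09. Epithelial-like cells had 3.43-fold (2.88 to 4.09) and 2.13-fold (1.89 to 2.41), equalled or passed by 3.48% and 9.54% of genes. Within them the folds were 4.88 and 1.88 in cluster 22, 3.09 and 2.04 in cluster 32 and 1.92 and 1.49 in cluster 33. Cluster 26, with the lowest level, had 1.4 (0.672 to 2.68) and 0.422 (0.223 to 0.737), so that it was lower with OVA under ribavirin. Plasma cell-like cells, from the lowest level, had 4.25-fold (3.16 to 5.74) and 2.58-fold (1.8 to 3.78). Macrophage-like cells had 2.16-fold (1.97 to 2.37) and 1.4-fold (1.26 to 1.56), with 1.4 (1.12 to 1.73) and 1.08 (0.846 to 1.35) in cluster 7 and 1.92 (1.72 to 2.14) and 1.24 (1.09 to 1.41) in cluster 15. In cluster 4, with 54 Vehicle and 86 Ribavirin cells, it was 2.59 (2.01 to 3.41) and 1.39 (1.2 to 1.63). The populations with the highest Il4ra levels stayed below the fold, at 1.4 and 1.18 in cluster 0, 1.03 and 0.972 in cluster 12, and 0.879 (0.848 to 0.912) and 0.931 (0.878 to 0.986) in neutrophil-like cells. Within neutrophil-like clusters 6, 10 and 21 Il4ra was higher with OVA in both pairs, at 1.3-fold and 1.46-fold, 1.21-fold and 1.23-fold, and 2.56-fold and 1.34-fold. In the other clusters it was 1.98 (1.08 to 4.13) and 0.989 (0.765 to 1.28) in cluster 2, 1.2 (0.684 to 2) and 1 (0.863 to 1.16) in cluster 8, and 1.16 (0.982 to 1.39) and 0.934 (0.746 to 1.17) in cluster 9.

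**Figure D5:**
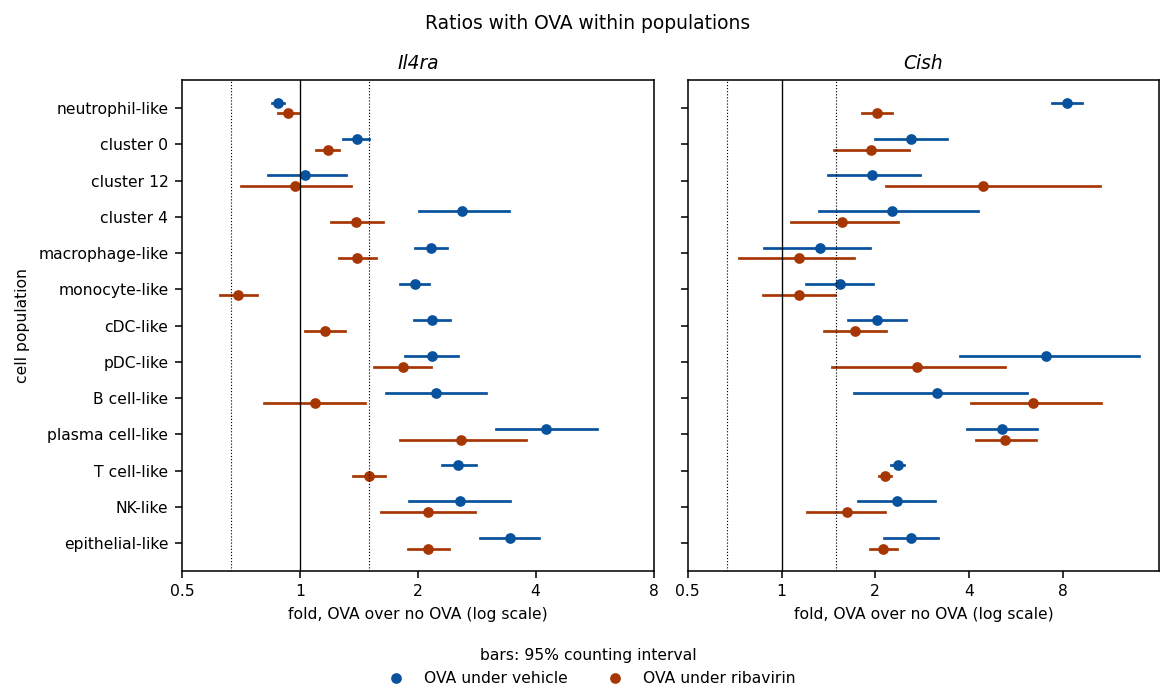
Fold difference with OVA (log axis) of Il4ra and Cish in 13 populations, under vehicle and under ribavirin, with exact conditional 95% intervals for counting error and dotted lines at 1.5-fold in either direction. Cish lies above 1 in all 13 populations in both pairs, with its largest fold in neutrophil-like cells under vehicle (8.25), and Il4ra lies near 1 in neutrophil-like cells and cluster 12.

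Il13ra1 was past the fold upwards in 7 of 11 populations under vehicle and in 2 under ribavirin, with 1 lower (2, 1 and 2 when length-centred). Neutrophil-like cells were not past the fold. Within them the folds were 1.68 and 2.19 in cluster 6, 1.25 and 1.44 in cluster 9, 1.78 and 1.38 in cluster 10, and 2.47 and 2.12 in cluster 21. Clusters 2 and 8 had 1.91 (0.817 to 5.89) and 0.56 (0.218 to 1.21) under vehicle, and 3.07 and 1.56 under ribavirin. Monocyte-like cells had 2.63-fold (2.42 to 2.86) and 1.39-fold (1.26 to 1.53), and epithelial-like cells 2.11-fold (1.89 to 2.37) and 2.13-fold (1.98 to 2.29). The monocyte-like clusters 5 and 18 had 2.52 and 1.79 under vehicle and 1.2 (0.935 to 1.52) and 1.21 (1.07 to 1.38) under ribavirin. Under ribavirin the epithelial-like clusters 22, 32, 33 and 26 had 1.5, 1.71, 1.69 and 1.57, all below the class ratio, and under vehicle 2.07, 4.11, 2.93 and 2.48. Taken over single cells, as the mean of their CPM, the epithelial-like log2 ratio under vehicle was -0.0375. In T cell-like cells Il13ra1 was 2.88-fold (2.18 to 3.78) in the vehicle pair, from 132 and 94 UMIs, but 0.59-fold (0.4 to 0.851) in the ribavirin pair, from 146 and 37 UMIs. All 10 neutrophil markers were found in those cells, summing to 569.5, 1929, 918 and 397 CPM, in the same order of libraries as Il13ra1. Their part in the result was not tested. Il13ra2 of epithelial-like cells had 3.46-fold (1.8 to 7.02) and 5.36-fold (3.75 to 7.81), equalled or passed by 8.88% and 0.938% of genes.

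Il2rg was past the fold downwards in 2 of 13 populations in each pair and upwards in 0. When length-centred, 2 were lower in each pair and 1 was higher under vehicle. The folds were 0.601 (0.533 to 0.676) and 0.734 (0.654 to 0.823) in monocyte-like, 0.659 (0.593 to 0.732) and 0.562 (0.514 to 0.614) in plasma cell-like and 0.676 and 0.836 in macrophage-like cells. Within the monocyte-like class, cluster 5 had 157, 125, 140.4 and 152.5 CPM and cluster 18 had 91.7, 72.2, 83.9 and 81.2 CPM, so that neither cluster was past the fold in either pair. In T cell-like cells, where it was high, Il2rg was level, at 0.996 (0.949 to 1.04) and 1.1 (1.05 to 1.15). The monocyte-like class carried fewer macrophage transcripts with OVA, with the 9 macrophage markers summing to 12860, 3503, 11980 and 3054 CPM, and whether this bears on its Il2rg was not tested.

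Jak3 was higher in 11 of 13 populations under vehicle and in 8 under ribavirin, but in 3 and 1 when length-centred, where 1 was lower under ribavirin. Plasma cell-like cells had 3.38-fold (2.69 to 4.25) and 2.28-fold (1.8 to 2.92), on 9.99, 33.7, 10.8 and 24.6 CPM. Neutrophil-like cells went apart, with 0.702-fold (0.596 to 0.829) and 1.56-fold (1.25 to 1.95). Within them, clusters 6 (24.5, 44.5, 25.2 and 27.3 CPM), 9 (11.6, 13.5, 18.8 and 24.6 CPM), 10 (24.2, 34.8, 19.1 and 51.8 CPM) and 21 (7.32, 19.1, 7.58 and 12.6 CPM) were higher with OVA in both pairs. Cluster 2, which held 21 and 4872 cells in the vehicle pair, was at 10.8 CPM in Vehicle-OVA. Jak1 was higher in 4 and 2 populations, and when length-centred in 0 of either pair with 1 lower under ribavirin. Its T cell-like folds were 1.59 (1.54 to 1.64) and 1.5 (1.46 to 1.55). Stat6 was higher in 3 and 4 populations, among them cluster 12 (1.95, 1.3 to 3.05, and 3.18, 1.65 to 6.86), monocyte-like cells (1.56, 1.38 to 1.77, and 1.63, 1.45 to 1.84) and plasma cell-like cells (1.92 and 1.88). Neither monocyte-like cluster was past the fold for Stat6, with 51.3, 66.7, 54.1 and 54.6 CPM in cluster 5 and 88.2, 98.1, 82.7 and 109 CPM in cluster 18. Length-centred, Stat6 was higher in 0 and 1 populations, and lower in 1 under vehicle.

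Socs1 differed in few populations, with 2 higher in each pair (1 in each when length-centred, where 3 and 2 were lower). The largest folds were those of plasma cell-like cells, 8.38 (6.91 to 10.2) and 2.07 (1.73 to 2.48), equalled or passed by 0.507% and 19.1% of genes. In cluster 27, the plasma cell-like cluster present in all libraries, Socs1 was at 7.01, 44.3, 14.1 and 33.0 CPM. The T cell-like cells, in which Cish was more than 2-fold higher in both pairs, had Socs1 at 73.1 against 83.6 CPM and 69.7 against 77.9 CPM.

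Ribavirin was compared with vehicle, without and with OVA, on the same 4 libraries, and these ratios share libraries with the OVA ratios. Without OVA, Il4ra was between 0.662-fold (0.559 to 0.787) in epithelial-like cells and 1.6-fold (1.18 to 2.19) in cluster 4. Epithelial-like clusters 22, 32, 33 and 34 had 25.3, 25.0, 16.9 and 114 CPM of Il4ra in Vehicle and 24.1, 24.9, 20.15 and 103 CPM in Ribavirin. Cluster 26, with 112 and 301 cells, had 10.9 and 5.94 CPM. Between the OVA libraries Il4ra was between 0.412-fold (0.363 to 0.468) in epithelial-like cells and 1.09-fold (0.904 to 1.3) in cluster 12, with 0.516-fold (0.454 to 0.586) in monocyte-like, 0.522-fold (0.403 to 0.678) in plasma cell-like and 0.658-fold (0.495 to 0.869) in B cell-like cells. Epithelial-like clusters 22, 32, 33 and 26 had 124, 77.4, 32.4 and 15.25 CPM in Vehicle-OVA and 45.45, 50.8, 30.1 and 2.50 CPM in Ribavirin-OVA. Il13ra1 was at 0.612-fold (0.548 to 0.684) in monocyte-like, 0.624-fold (0.571 to 0.682) in epithelial-like and 0.662-fold (0.616 to 0.711) in cluster 4 cells. It was also past the fold downwards in T cell-like cells, from 11.2 CPM in Vehicle-OVA to 3.34 CPM in Ribavirin-OVA, and in pDC-like cells, from 18.9 to 8.84 CPM. Cish was at 0.363-fold (0.333 to 0.395) in neutrophil-like and 0.655-fold (0.477 to 0.901) in NK-like cells, but at 1.72-fold (1.44 to 2.05) in plasma cell-like and 2.89-fold (1.99 to 4.25) in B cell-like cells. In T cell-like cells it was level, at 1.01-fold (0.959 to 1.06). Ratios at least as large as the B cell-like one of Cish were seen for 1.4% of the genes of those cells, and ratios at least as large as the neutrophil-like one for 98.8%. Neutrophil-like cluster 2 made up 4872 of 8514 Vehicle-OVA and 271 of 1468 Ribavirin-OVA cells. Clusters 2, 6 and 10 had 367, 76.0 and 80.4 CPM of Cish in Vehicle-OVA and 350.5, 74.1 and 76.9 CPM in Ribavirin-OVA. Clusters 8 (20 Vehicle-OVA cells), 9 and 21 had 195, 219 and 65.95 CPM against 95.3, 111 and 29.6 CPM.

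The ligands were measured in the same cells. Il4 had 36, 537, 38 and 1170 UMIs in all and Il13 had 28, 473, 77 and 2015 UMIs. Without OVA, ILC2-like cells held 64.3% and 62.3% of the Il13 UMIs, of Vehicle and Ribavirin. With OVA, cluster 23b held 71% and 86.5% of Il13 and 35.8% and 83.6% of Il4, from 56 and 144 cells. Basophil-like cells held 49.9% of the Il4 UMIs of Vehicle-OVA and 2.31% of those of Ribavirin-OVA. T cell-like cells held 7.4% and 7.2% of the Il13 UMIs of these libraries. Cluster 23b thus held most of the Il13 of both OVA libraries and had the highest Il2rg, but had 85 to 103 CPM of Il4ra, in the middle of the order.

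Other genes of the pathway were described by their lists, beside the share of all genes that were higher in the same cells, 35.3% and 33.5% in T cell-like, 35.3% and 35.8% in cDC-like, 10.5% and 34.1% in neutrophil-like, 48.8% and 43.8% in epithelial-like and 43% and 43.4% in plasma cell-like cells. Of 8 other JAK and STAT genes, 6 and 5 were higher with OVA in T cell-like cells and 0 lower, with a median log2 ratio of 0.87 and 0.60 against 0.36 and 0.36 for all genes. Among them Stat3, which is activated by IL-6 family cytokines, was at 146, 379, 183 and 317 CPM. In cDC-like cells 6 and 6 were higher, with Jak2 at 277, 689, 312 and 608 CPM. In neutrophil-like cells 3 and 3 were higher and 2 and 0 lower (40.6% and 7.71% of all genes were lower). Of 6 other SOCS genes, 6 and 4 were higher in T cell-like cells (medians 0.91 and 0.79) and 6 and 5 in epithelial-like cells, with Socs2, a regulator of growth hormone signalling, at 60.8, 198.5, 63.9 and 115 CPM in the latter. In plasma cell-like cells 4 and 5 of 5 were higher. There Socs3, an inhibitor of IL-6 signalling, was at 23.1, 201, 53.4 and 147 CPM and Socs2 at 59.1, 232, 50.8 and 306 CPM.

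Of 6 other chains that pair with Il2rg, 3 and 4 were higher in T cell-like cells, among them Il2ra, the high-affinity chain of the IL-2 receptor, at 78.5, 259.7, 99.9 and 219.8 CPM. In cluster 4, in contrast, 0 and 2 of 5 were higher and 4 and 2 lower (31.1% and 27.8% of all genes were higher and 11.9% and 11.8% lower), with Il7r at 209, 106, 117 and 60.5 CPM. Of 8 adaptors and phosphatases, 4 and 4 were higher in T cell-like cells, with the adaptor Irs2 at 47.4, 177, 72.6 and 177 CPM. In plasma cell-like cells 5 and 4 were higher.

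Of 18 IL-4 and STAT6 target genes, 10 and 11 were higher and 3 and 3 lower in macrophage-like cells, where 29.6% and 27% of all genes were higher. Retnla, a secreted marker of the IL-4-activated state, was at 0.742, 478, 0.610 and 848 CPM in macrophage-like cells. Over that class as a whole the Cish difference was within counting error. Ccl24, an eosinophil attractant, was at 12.3, 3209, 187 and 2260 CPM in cluster 4. It leads that cluster together with the listed genes Arg1, Slc7a2 and Retnla, so the list is not counted there. In B cell-like cells 7 and 8 of 9 were higher (41.2% and 29.9% of all genes), with Fcer2a, the low-affinity IgE receptor, at 118, 296, 71.8 and 144 CPM and the chemokine Ccl22 at 3.27, 221, 2.27 and 1776 CPM. T cell-like cells had 10 and 7 of 18 higher and 6 and 5 lower, where 9.74% and 8.83% of all genes were lower. Ccl24 was also found at 0.326, 25, 0.232 and 12.99 CPM in T cell-like and 0, 28.7, 0.0675 and 21.1 CPM in neutrophil-like cells, low levels beside those of cluster 4, and how far free RNA adds to the counts of target genes was not tested. Of 10 dissociation stress genes, 5 and 1 were higher in T cell-like cells and 5 and 2 in macrophage-like cells, against the shares of all genes given above for these cells. In neutrophil-like cells Hspa1b was at 4.27, 243, 18.8 and 140 CPM and Hspa1a at 7.84, 181, 18.2 and 60.6 CPM. Hspa1b and Hsp90aa1 were higher in both pairs in epithelial-like and plasma cell-like cells. Atf3 was lower in both pairs in cluster 0, cluster 12 and cDC-like cells. What dissociation stress adds to the ratios of the 9 genes was not tested.

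Genes with the most similar pattern were sought over 63 sums of a population in a library (18 populations, at least 50 cells each, 14608 genes), by Pearson's r of log2(CPM + 1). The sums share libraries and populations, so r is a description. Il4ra was most like Rhog (0.895), Picalm (0.895) and Fam21 (0.889), and Il13ra1 most like Oasl2 (0.906), Ltbr (0.886) and Lamp2 (0.883). Il2rg was most like Mndal (0.892), Esyt1 (0.872) and Rrad (0.866). Jak1 was nearest to Mknk2 (0.879), Heca (0.855) and Arhgef3 (0.841), Jak3 to Fli1 (0.831), Wipf1 (0.82) and Arf6 (0.812), and Stat6 to Arpc5 (0.878), Notch2 (0.862) and Samd9l (0.854). Of the feedback genes, Cish was nearest to Bhlhe40 (0.807), a transcription factor of activated lymphocytes, Dgat1 (0.801) and Zc3hav1 (0.798), and Socs1 to Sidt2 (0.756), Cast (0.741) and Traf1 (0.74). For Il13ra2, at or near 0 in most sums, the likeness to 4921506M07Rik (0.963), Col5a2 (0.955) and Wdr72 (0.955) rests on the few epithelial and endothelial sums.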

How the data were processed

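The deposited data are whole UMI counts per gene and called cell barcode, 1 matrix per library, which the authors left without normalization. The submitters' processing notes name Cell Ranger 5.0.0 and mm10, and the annotation behind the counts is not given in the sources used here. The labels describe enzymatic digestion and magnetic enrichment of CD45+ cells, whereas the series text names sorting by fluorescence. Total counts per library were 171873110, 102796247, 168064152 and 91742940 UMIs for Vehicle, Vehicle-OVA, Ribavirin and Ribavirin-OVA.

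From the deposited counts, cells were kept that had 200 or more genes, 500 or more UMIs and less than 10% mitochondrial UMIs. Doublets were marked in each library as cells with over 0.85 of simulated doublets among their neighbours (1.0548% to 5.2046% of cells, against 4.1244% to 11.3108% expected from the barcode number, so doublets remain) and removed. The 4 libraries were clustered together (2000 variable genes without the 9 genes described, 30 principal components, 15 neighbours, Leiden resolution 1.0, scanpy 1.11.5, igraph 0.11.9, Python 3.11.15, numpy 2.4.6, scipy 1.17.1, pandas 2.3.3). Clusters were called "X-like" from marker lists (3 of 138 markers are not listed in the files) with at least 3 markers detected at 2-fold in at least 10% of cells. A cluster stayed unnamed when markers of another class led it. By a rule set after the data had been seen, it also stayed unnamed when its class was not T cell and at least 50% of its cells carried Cd3e. Cluster 23b, otherwise ILC2-like, was left unnamed by this rule. These names are rebuilt, from which differences to the study's own cell types can arise.

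UMIs were summed per population and library and given as CPM with exact Poisson 95% intervals. Ratios have exact conditional binomial and shares exact Clopper-Pearson 95% intervals, all of which cover counting error only, and a count of 0 was given the limit that 3 counts allow. Shares were taken after thinning to 1000 UMIs. With 1 library per group no test across samples was made. The scripts were tested on simulated data. Gene positions and lengths came from GENCODE M21 (98.7% of genes matched), and promoter sequences from RefSeq on GRCm38.p6. The 9 genes and all lists were chosen with earlier results of these data known. Named genes were the 9, up to 4 genes per list and population past 1.5-fold alike in both OVA pairs with the largest summed log2 ratios, and the 3 genes most like each of the 9. Alternatives varied scaling, length centring, single-cell means, the mitochondrial, UMI and gene limits, resolution, doublets, marker-based classes, pseudocount and thinning. Regrouping clusters 0, 4 and 23b and leaving out clusters with at least 75% of their cells from 1 library were added after the data had been seen. The plots were drawn with matplotlib 3.10.9.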

Additional observations from a re-analysis of the deposited data

Results flagged for a closer look

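In 3 cases, among the 13 populations with at least 50 cells in every library, a gene was higher with OVA in 1 pair of libraries and lower in the other, with both counting intervals clear of 1. Whether the pairs differed was not tested, since each group has 1 library. Il13ra1 in T cell-like cells was at 2.88-fold with OVA under vehicle and 0.59-fold under ribavirin, from 37 to 146 UMIs. Il4ra in monocyte-like cells was at 1.97-fold and 0.696-fold, and this held within monocyte-like cluster 18 (1.88 and 0.695), whereas cluster 5 had 2.51 and 1.06. Jak3 in neutrophil-like cells was at 0.702-fold and 1.56-fold, beside a median log2 ratio of all genes of -0.44 and 0.35 in those cells. This did not hold within clusters 6, 9, 10 and 21, where Jak3 was higher with OVA in both pairs. Clusters 2 and 8 were lower under vehicle, with 21 Vehicle cells in cluster 2 and 20 Vehicle-OVA cells in cluster 8. The class changed in cluster make-up, with 21 and 4872 cells of cluster 2 in the vehicle pair. In the smaller ILC2-like population, with 31 to 105 cells a library, Cish (2.05 and 0.695) and Socs1 (4.37, 2.41 to 7.97, and 0.342, 0.0879 to 0.96, from 4 to 33 UMIs) also went apart in this way.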

How the results depend on the processing

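No paired analysis was possible because each group has 1 library and the labels give no replicate numbers to pair. Counts of populations out of 13 moved as follows. Cish, higher with OVA in 11 populations under ribavirin, was so in 7 with median-of-ratios size factors, 4 when length-centred, 7 of 9 with classes from single-cell marker UMIs and 7 of 9 with at least 500 UMIs per gene. Under vehicle it stayed within 1.5 times of 12 throughout. Il4ra, higher in 10 populations under vehicle, was so in 6 when length-centred. Under ribavirin (4 populations) it was so in 2 with median-of-ratios factors, 1 when length-centred, 7 at resolution 2.0, 7 of 12 with a 5% mitochondrial limit and 2 of 10 with at least 500 UMIs per gene. The cause of these moves was not tested beyond the smaller number of populations or genes that an alternative left.

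Of 1488 values past 1.5-fold recomputed over all alternatives, 1478 kept their direction, 10 reversed and 1300 were still past the fold. Reversed log2 ratios under vehicle were those of Jak1 in epithelial-like cells when length-centred (-0.0554, and -0.0246 under ribavirin), of Il13ra1 in B cell-like cells with single-cell means (0.30), a 5% mitochondrial limit (0.91) or doublets kept (0.36), of Il13ra1 and Jak3 in epithelial-like cells with single-cell means (-0.0375 and -0.18), of Socs1 in cluster 0 with the 5% limit (-0.16) and of Jak3 in epithelial-like cells with marker-based classes (-0.18). Under ribavirin, Cish in pDC-like cells reversed with marker-based classes (-0.24). Depth limits Il13ra2 outside epithelial-like cells and Il13ra1 in lymphoid cells. The number of cells limits the values of ILC2-like cells and cluster 23b.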
